A study of Mus musculus with 12 samples.

Results

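A set of 10 receptor tyrosine kinase pathway genes was followed in spontaneous mouse lung tumours: the receptors Met, Mst1r, Ros1, Alk, Ret, Ddr1, Ddr2, Fgfr1 and Fgfr2 and the Met ligand Hgf. They were taken by gene symbol, and all 10 were measured among 18193 genes on the array. Where a gene had several probe sets (groups of short probes for 1 transcript), the one brightest on average, by mean log2 value across the 12 arrays, stood for it. The samples were 6 spontaneous lung tumours and 6 normal lungs, 1 Affymetrix array each, from untreated B6C3F1 mice aged 2 years, a hybrid strain used in long-term rodent bioassays. No group carried a transgene or an engineered allele, and the labels do not say whether each sample came from a separate animal. Levels are given in linear signal units. Differences subtract normal lung from tumour after taking log2(signal + 16), and stand ± standard error with n = 6 arrays per group. Adding 16 before the logarithm shrinks the differences of dim probe sets. Tests used limma, and each p was adjusted by the Benjamini-Hochberg method across all 45037 probe sets and called below 0.05.

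Receptor tyrosine kinases span the cell membrane, bind a ligand outside the cell and phosphorylate tyrosines inside it, which recruits adaptor proteins and starts Ras and phosphoinositide signalling. In the lung, HGF from mesenchymal cells acts on Met in epithelium, and fibroblast growth factors from mesenchyme act on Fgfr2 in the epithelium of the developing and repairing airway. MET, ROS1, ALK and RET are altered by mutation, amplification or fusion in subsets of human lung adenocarcinoma. Array signals do not show whether a gene is mutated, fused or amplified.

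Of the 10 genes, Met, Ros1 and Ddr1 rose in tumours and Hgf, Ddr2 and Fgfr1 fell. Mst1r, Alk, Ret and Fgfr2 did not pass the test, though Ret passed on its other probe set. Across all genes 12.1% were called higher and 17.4% lower. Tumour and normal arrays were fully separate for Met, which was higher in every tumour, and for Ddr2, which was lower in every tumour, where 6.74% of all genes were higher without overlap and 11.7% lower. These shares over all genes also stand beside the counts of the gene lists below. The median difference of the 10 genes was 0.44, against -0.08 over all genes. Of the 26 probe sets of these genes 5 were called higher and 5 lower, where 10.1% and 13.9% of all probe sets were.

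**Figure D1:**
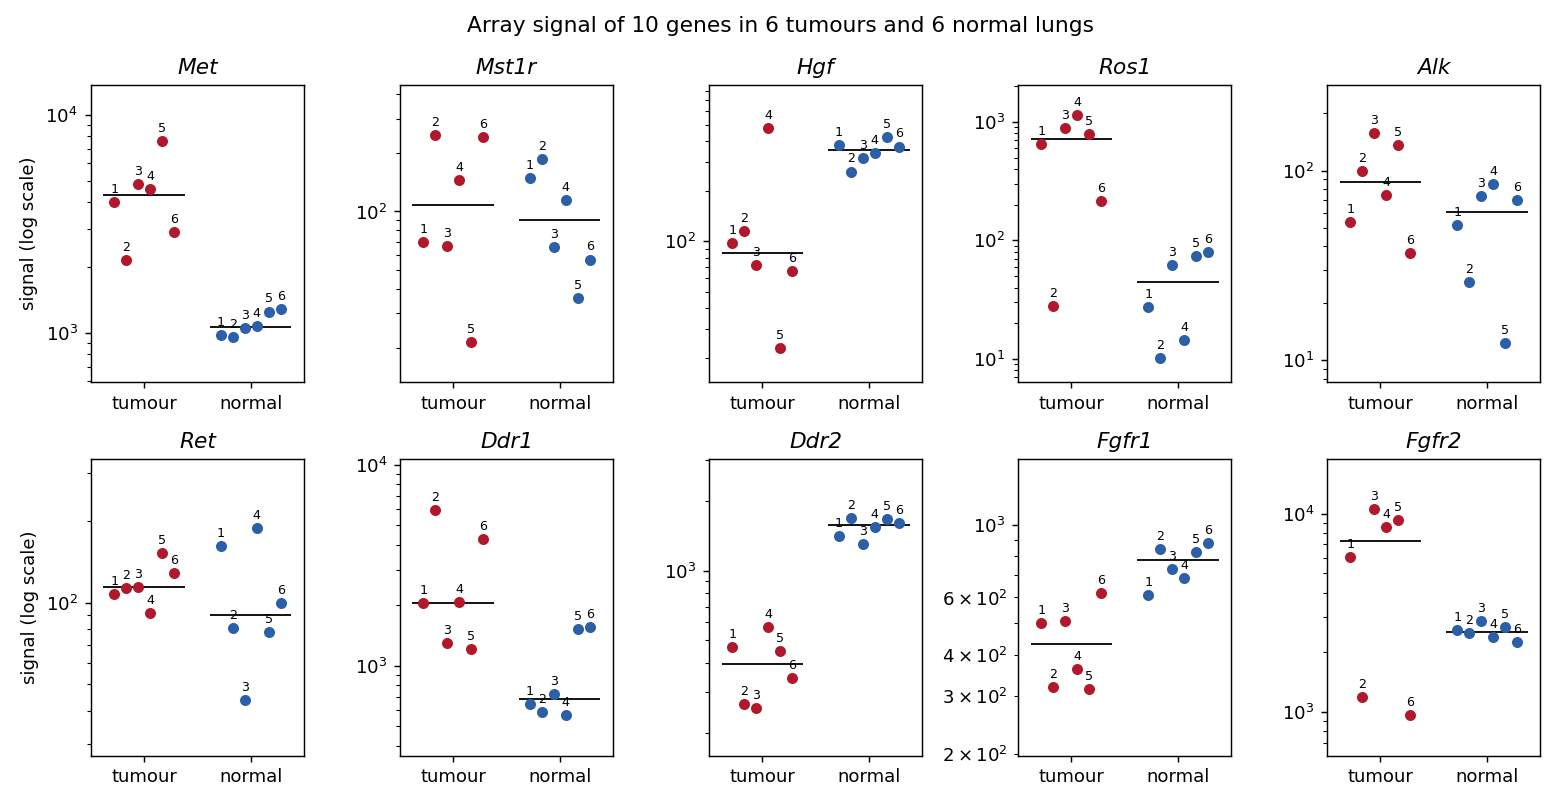
Signal per array on a log scale for each of the 10 genes, with tumours (red) left and normal lungs (blue) right in each panel, the sample number above each point and a line at the group median. Met and Ddr2 separate the groups, while Fgfr2 in tumours lies either above or below every normal lung.

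The tissue makeup of the 2 groups differed on these arrays. Of 8 epithelial markers 7 rose in tumours, with summed signals of 38371 to 124196 in tumours and 19743 to 22905 in normal lungs. Markers of type I, ciliated and club cells, also epithelial, went the other way, with 7 of 8, 8 of 8 and 6 of 6 lower. With Eif2s3y as a covariate 5, 8 and 4 of these were lower. Of 9 fibroblast markers 6 fell, summing to 3491 to 12602 in tumours and 30922 to 43358 in normal lungs, and all 10 endothelial markers fell, summing to 5107 to 13111 in tumours and 62098 to 84719 in normal lungs. Of 7 type II markers 3 rose, with sums of 89801 to 206035 in tumours and 102524 to 143724 in normal lungs, so that lung epithelium is marked in both groups, and none of the 7 passed with Eif2s3y as a covariate. No marker is listed at 0. Normal lungs 2 and 4 stood apart in liver markers, with mean log2 values of 10.65 and 10.86, against 4.76 to 8.05 in tumours and 5.45 to 7.96 in the other normal lungs. Among the 10 genes, the Ddr1 call alone changed without these 2 lungs. Without them 1 of the 7 type II markers passed. Normal lung 1 stood apart in neutrophil markers, with a mean log2 value of 14.96. The other normal lungs had 9.19 to 11.64 and the tumours 8.22 to 10.12. Leaving out normal lung 1 alone changed no call of the 10 genes. Sex-linked transcripts were also unbalanced. The Y-linked Eif2s3y ranged over 740.5 to 1638 in tumours 1, 2, 3 and 5. It was 2.09 in tumour 4, 12.6 in tumour 6 and no more than 27.4 in any normal lung. The X-linked Xist showed the reverse, at 47.1 to 109.3 in tumours 1, 2, 3 and 5. It was 12621 in tumour 4, 10184 in tumour 6 and 7877 to 11265 in normal lungs. All 6 normal lungs thus had the pattern of tumours 4 and 6, so sex-linked expression is partly confounded with the comparison of tumours and normal lungs. In bulk tissue, fewer cells of a type and less RNA per cell cannot be told apart, and the part of tissue makeup in the differences below was not tested.

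Met, the receptor for HGF, had its 6 tumour values above all 6 normal values. Its signal ran from 2166 to 7622 with a median of 4284 in tumours, and from 954.1 to 1284 with a median of 1063 in normal lungs. The lowest tumour, tumour 2, was still above the highest normal lung, normal lung 6. The difference was 1.87 ± 0.23 (adjusted p = 3.02e-05), and the second Met probe set gave 1.83 ± 0.27 (adjusted p = 1.31e-04), again without overlap. Met signals in tumours 2 and 6, at 2166 and 2913, were the lowest of the tumours, and tumour 5 was the highest. The tumours spanned 1.81 log2 units and the normal lungs 0.42.

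The stretch before the start of Met is shown beside that of Ros1, because both genes rose while their promoters differ in base composition. Both are the 250 bases before the RefSeq start site (GRCm38.p6), 5′ to 3′ in the sense of the gene, with GC boxes (GGGCGG), AP-1 motifs (TGANTCA) and E-boxes (CACGTG) in capitals, searched on both strands. The Met window is chr6:17463707-17463956 on the plus strand and the Ros1 window chr10:52195245-52195494 on the minus strand.
Met: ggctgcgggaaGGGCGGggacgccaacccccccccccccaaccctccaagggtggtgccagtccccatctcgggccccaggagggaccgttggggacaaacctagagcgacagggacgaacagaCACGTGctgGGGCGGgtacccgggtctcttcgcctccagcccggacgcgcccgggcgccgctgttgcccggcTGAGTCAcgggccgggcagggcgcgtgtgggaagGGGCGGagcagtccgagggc
Ros1: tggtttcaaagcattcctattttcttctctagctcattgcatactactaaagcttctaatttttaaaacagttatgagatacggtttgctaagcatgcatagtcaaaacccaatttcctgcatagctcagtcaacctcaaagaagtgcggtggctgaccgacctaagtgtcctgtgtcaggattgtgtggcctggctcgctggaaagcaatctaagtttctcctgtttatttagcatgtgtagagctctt

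The Met window held 3 GC boxes, 1 AP-1 motif and 1 E-box, and 74% of its bases were G or C. The Ros1 window held none of these motifs and had 41.6% G or C. Over all 32851 promoter windows of this length the median was 52.4%, and 32.7% held a GC box, 6.75% an AP-1 motif and 6.02% an E-box. TATAAA, the FOXA motif TGTTTAC and the NKX2 motif TCAAGTG were found in neither window, and in 12.4%, 3.17% and 2.68% of all windows. No 2 of the searched motifs overlapped in the Met window. These matches describe letters in the windows, not binding.

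Hgf, the secreted ligand of Met made mainly by mesenchymal cells, went the other way from its receptor in 5 of 6 tumours on its representative probe set. Its signal ran from 23.04 to 480.0 with a median of 84.8 in tumours, and from 261.9 to 419.5 with a median of 353.9 in normal lungs. Tumour 4, at 480.0, was above every normal lung, and the other 5 tumours, at 115.3 or less, were below every normal lung. Over the group Hgf fell by 1.67 ± 0.43 (adjusted p = 0.0107). The other 2 Hgf probe sets, -0.52 ± 0.37 (adjusted p = 0.356) and -0.82 ± 0.40 (adjusted p = 0.169), did not pass, and on both of them tumour 4 was again the highest array, at 400.4 and 338.3. Tumour 5, the lowest array on the representative probe set, lay inside the normal range on both, at 207.9 and 163.5. On the first of them tumour 3, at 171.8, was also inside it. Among tumours, tumour 4 also had the highest mean of the fibroblast markers, -1.17 log2 units from the mean of normal lungs, where the other 5 lay at -3.74 to -2.07. This was not particular to fibroblasts. Tumour 4 was likewise the highest tumour for endothelial markers (-2.44, the others -3.88 to -2.77) and smooth muscle markers (-2.08, the others -3.67 to -2.16). It was also the highest for ciliated and club cell markers, with mean log2 values of 8.15 and 13.37. A relation of Hgf to any marker list was not tested. The Hgf call was lost with Eif2s3y as a covariate (-0.99, adjusted p = 0.254) and without the 4 tumours with Eif2s3y (-0.83, adjusted p = 0.313), a setting that leaves tumours 4 and 6 alone.

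Mst1r, which encodes Ron, the receptor for macrophage-stimulating protein and the closest relative of Met, did not pass (0.19 ± 0.48, adjusted p = 0.828). Signals ran from 21.3 to 248.2 in tumours, with a median of 107.7, and from 36.02 to 186.3 in normal lungs, with a median of 90.4. The highest tumours were 2 and 6, at 248.2 and 241.7, the only tumours above every normal lung. Only those 2 tumours and normal lung 2 had Mst1r signals over the median of their own arrays, so the level was close to the dim end in most samples. The ligand gene Mst1 fell by 1.31 ± 0.31 (adjusted p = 0.00611), at 18.1 to 98.3 in tumours and 100.5 to 185.2 in normal lungs, without overlap.

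HGF and macrophage-stimulating protein are secreted as inactive chains that serine proteases cleave, and the membrane-bound inhibitors Spint1 and Spint2 restrain those proteases. Of 11 measured genes of this list 6 rose and 1, Mst1, fell, with a median difference of 0.80 against -0.08 over all genes. Hpn, the protease hepsin, rose by 2.23 ± 0.23 (adjusted p = 6.27e-06), and St14, the protease matriptase, rose by 1.39 ± 0.18 (adjusted p = 5.20e-05), both without overlap. The inhibitors rose as well, Spint1 by 1.58 ± 0.14 (adjusted p = 1.78e-06) and Spint2 by 1.005 ± 0.122 (adjusted p = 2.48e-05). These 4 genes had no overlap between tumours and normal lungs, while the other 2 that rose overlapped. Hgfac, the HGF activator protease, rose by 2.13 ± 0.47 (adjusted p = 0.00361), with tumours 2 and 6 far up at 1967 and 2837. The other 4 tumours had 275.9 to 841.8 and the normal lungs 122.6 to 313.5. Prss8, the protease prostasin, rose by 0.80 ± 0.27 (adjusted p = 0.0442), and here tumours 2 and 6, at 934.4 and 898.4, lay below all normal lungs (939.2 to 1125) while the other 4 had 2040 to 2904. Plau, Plat, Tmprss2 and Serpina5 did not pass, with adjusted p-values from 0.115 to 0.949.

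Activated Met docks adaptors directly and through Gab1, and it associates with Cd44, Plxnb1 and the integrin chain Itgb4. Of 18 measured adaptors and partners 3 rose, 2 fell and 13 did not pass (median -0.14), where 12.1% of all genes were called higher and 17.4% lower. Cd44, a hyaluronan receptor, rose by 1.46 ± 0.22 (adjusted p = 1.66e-04), the adaptor Shc1 by 0.76 ± 0.13 (adjusted p = 4.60e-04) and the phosphatase Ptpn2 by 0.87 ± 0.16 (adjusted p = 7.85e-04). The phosphoinositide kinase subunit Pik3r1 fell by 0.97 ± 0.13 (adjusted p = 5.66e-05) and the phosphatase Ptpn11 by 0.56 ± 0.12 (adjusted p = 0.00354). All 5 of these did so without overlap between the groups, where 6.74% of all genes were higher without overlap and 11.7% lower. The adaptor Gab1 did not pass (-0.31 ± 0.26, adjusted p = 0.443), and its signals of 632.1 and 561.7 in tumours 2 and 6 lay below every normal lung. The other tumours had 1265 to 1888 and the normal lungs 1100 to 1633. Itgb4 did not pass either (1.32 ± 0.68, adjusted p = 0.185), with tumours 2 and 6 at 1787 and 843.7. Its range was 50.8 to 172.6 for the remaining tumours and 30.2 to 147.9 for normal lungs.

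**Figure D2:**
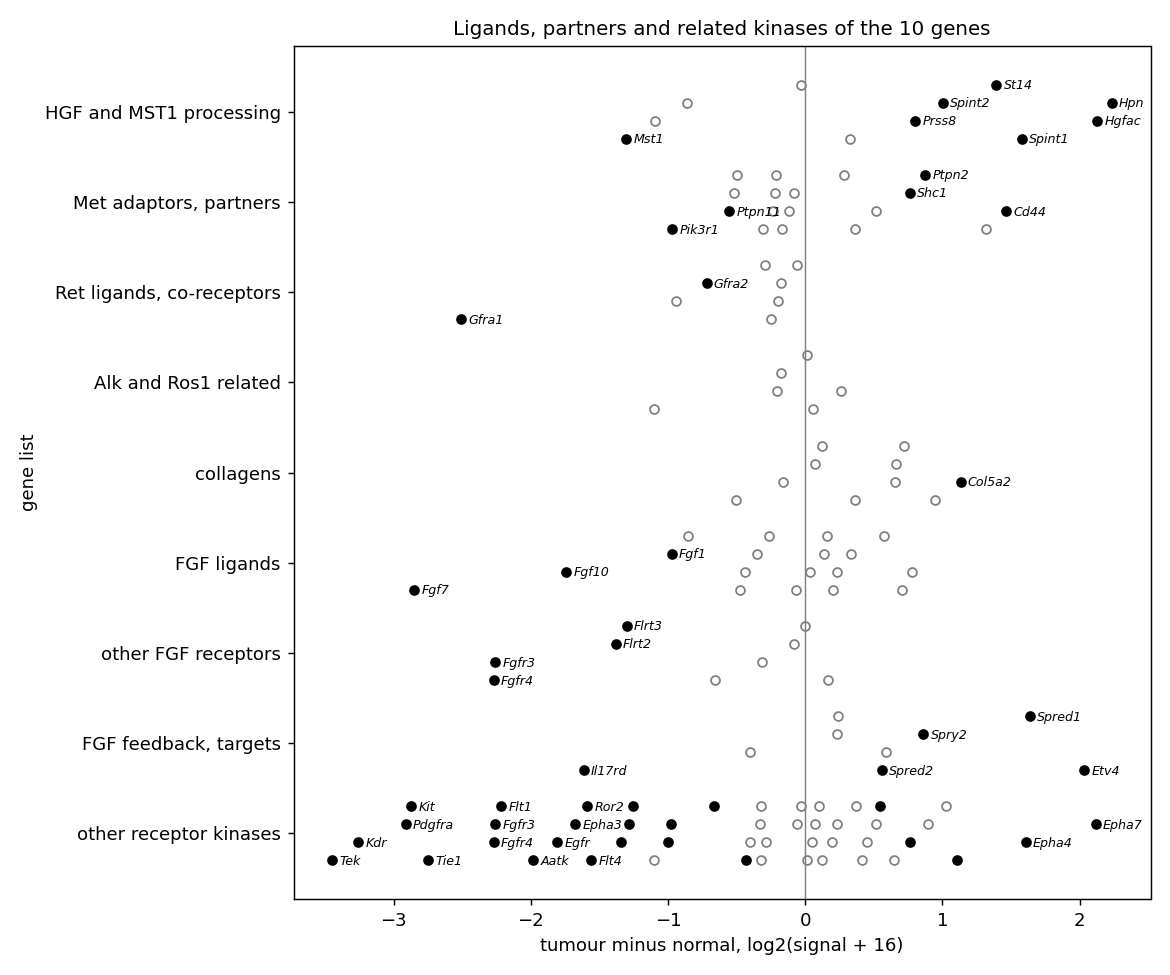
Difference of each measured gene (tumour minus normal, log2(signal + 16), x axis) in lists of ligands, partners and related kinases (y axis). Filled points passed the test and open points did not. Among receptor kinases outside the 10 genes more points lie left of 0, and among HGF and MST1 processing genes more lie right of it.

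Ros1, a receptor kinase with a large extracellular part, had the largest rise of the 10 genes, and 1 tumour did not share it. Signals were 651.7, 887.3, 1142 and 794.2 in tumours 1, 3, 4 and 5, 214.5 in tumour 6 and 27.9 in tumour 2. In normal lungs they ran from 10.2 to 79.1 with a median of 44.8. The other 5 tumours were above every normal lung while tumour 2 was inside the normal range. All 6 normal lungs and tumour 2 were below the median signal of their own arrays, so the level there was dim and the size of the rise is uncertain. The difference was 2.98 ± 0.68 (adjusted p = 0.00443), on the only Ros1 probe set. The tumours spanned 4.72 log2 units, and 0.978% of all genes had a wider span among tumours.

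The genes whose array profiles lay nearest to those of Met and Ros1 were found from the root mean square difference between log2 values centred on each gene's own mean over 12 arrays. For Met these were Shmt1, a serine hydroxymethyltransferase of folate metabolism (0.25), Cited2, a transcriptional coregulator (0.27), and Creb3l1, a membrane-bound transcription factor (0.28). For Ros1 they were Mirg, a non-coding RNA of the imprinted Dlk1-Dio3 locus (0.55), Bex1 (0.68) and the ephrin receptor Epha7 (0.69). Epha7, itself a receptor kinase, had signals of 641.2 to 943.3 in tumours 1, 3, 4 and 5, of 61.7 in tumour 2 and of 131.9 in tumour 6, where normal lungs had 63.7 to 128.7. All 6 were called higher in tumours, which follows from choosing them by likeness over the same 12 arrays.

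Alk, a receptor kinase best known in the nervous system, did not pass (0.67 ± 0.38, adjusted p = 0.23). Its signals ran from 36.6 to 156.9 with a median of 86.9 in tumours, and from 12.3 to 85.0 with a median of 60.8 in normal lungs. Tumour 3, at 156.9, was the only array on which Alk exceeded the array median, so Alk was dim on the other 11. Of 6 measured genes related to Alk or Ros1, among them the related receptor Ltk, the growth factors Ptn and Mdk, and Nell2, a ligand of Ros1 in the epididymis, none rose and none fell in limma. Their adjusted p-values ran from 0.0514 for Ltk to 0.982 for Mdk, and 1 of the 6 had an unadjusted p under 0.05.

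Ret, the receptor for the GDNF family, gave different answers on its 2 probe sets. On the representative one the signals ran from 91.7 to 152.0 with a median of 113.7 in tumours and from 43.6 to 188.3 with a median of 90.1 in normal lungs. The tumours lay inside the normal range, and the difference was 0.21 ± 0.29 (adjusted p = 0.654). On the second probe set the signals were 114.3 to 248.0 in tumours and 35.4 to 108.9 in normal lungs, without overlap, and the difference was 1.05 ± 0.26 (adjusted p = 0.00834). The mean signals of the 2 probe sets over 12 arrays, 113.3 and 114.3, were nearly equal, and the choice between them decides the call. Of 8 measured ligands and co-receptors none rose and 2 fell, both co-receptors. Gfra1, which binds GDNF, fell by 2.51 ± 0.25 (adjusted p = 3.81e-06), at 35.8 to 127.0 in tumours and 309.8 to 599.2 in normal lungs. Gfra2 fell by 0.72 ± 0.18 (adjusted p = 0.00694). Gdnf itself did not pass (-0.25 ± 0.75, adjusted p = 0.858) and spread widely among tumours, at 847.7 and 1070 in tumours 1 and 3, 255.1 in tumour 2, 78.1 and 50.5 in tumours 4 and 5 and 6.62 in tumour 6, against 156.6 to 253.6 in normal lungs. Markers of neuroendocrine cells were dim, with summed signals of 85.3 to 179.1 in tumours and 115.5 to 375.3 in normal lungs, and 1 of 4, Syp, fell.

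**Figure D3:**
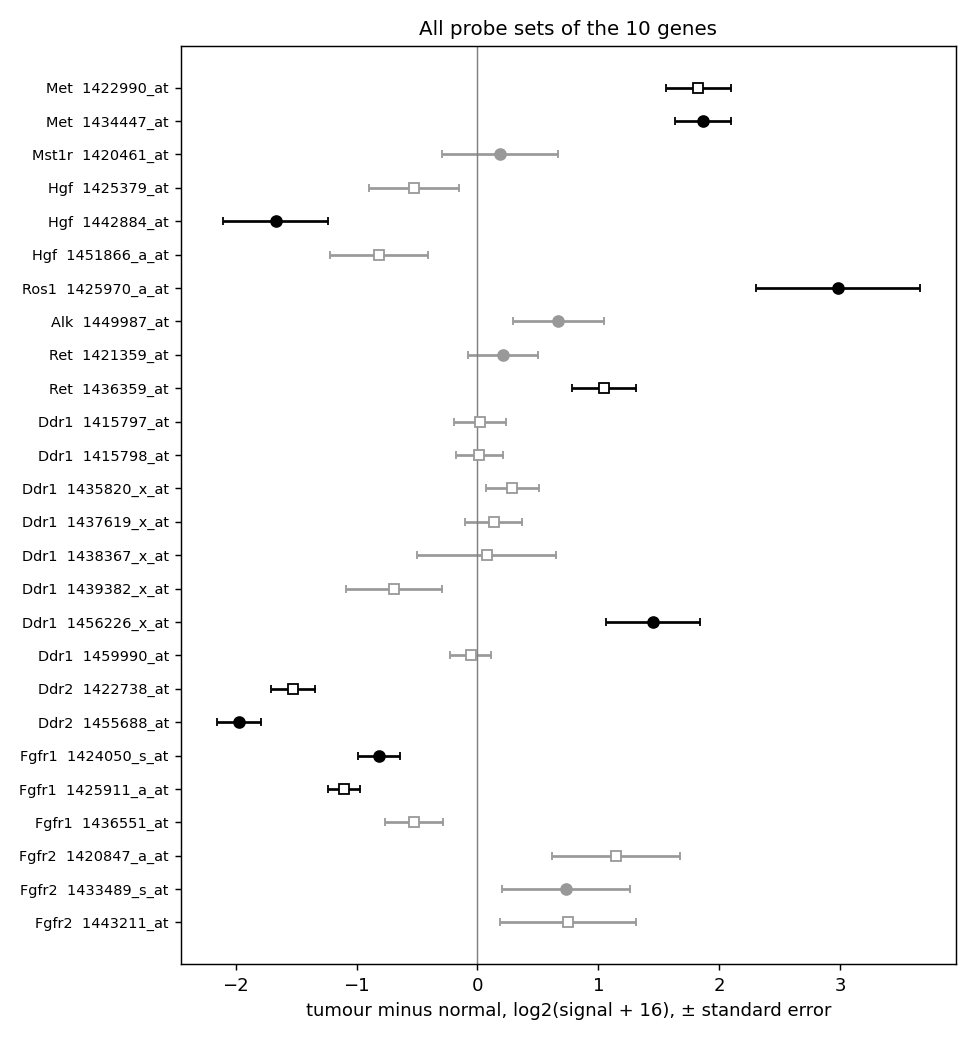
Difference ± standard error for all 26 probe sets of the 10 genes (n = 6 arrays per group). Circles are the representative probe sets and squares the others, black passed the test and grey did not. Both probe sets of Met and both of Ddr2 passed, while Ddr1, Ret and Hgf each passed on 1 of theirs.

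Ddr1 and Ddr2 are receptors for collagen, Ddr1 typical of epithelium and Ddr2 of mesenchyme. Ddr2 was lower in every tumour, with signals of 255.4 to 573.6 and a median of 397.7 in tumours and of 1295 to 1683 with a median of 1574 in normal lungs. The difference was -1.97 ± 0.18 (adjusted p = 2.06e-06), and the second probe set gave -1.52 ± 0.18 (adjusted p = 2.28e-05), also without overlap. Tumours 3 and 2 were the lowest and tumour 4 the highest of the tumours. The Ddr2 fall was seen beside the fall of 6 of 9 fibroblast markers given above.

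Ddr1 rose on 1 of its 8 probe sets. On that probe set tumours 2 and 6 stood highest, at 5939 and 4255, and the other 4 ran from 1205 to 2072. Normal lungs ran from 570.2 to 1547 with a median of 683.0, normal lungs 5 and 6 being the high ones at 1524 and 1547. Tumours 3 and 5, at 1288 and 1205, overlapped them. The difference was 1.45 ± 0.39 (adjusted p = 0.0127). On the other 7 probe sets, all dimmer, differences ran from -0.69 to 0.29 and none passed (adjusted p from 0.243 to 0.963). The suffix x_at, which on this platform marks probes that may match other transcripts, is carried by the probe set that rose and by 4 of the 7 others. With the probe sets in disagreement, the Ddr1 rise is uncertain. The call was lost when all probe sets were averaged (0.16, adjusted p = 0.508), without normal lungs 2 and 4 (1.18, adjusted p = 0.0899) and with Eif2s3y as a covariate (1.56, adjusted p = 0.0658).

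Collagens are the ligands of both receptors. Of 10 collagen genes 1 rose, none fell and 9 did not pass in limma (median 0.51). Col5a2, a chain of type V collagen, rose by 1.13 ± 0.18 (adjusted p = 2.95e-04), with 1525 to 3159 in tumours and 778.2 to 1355 in normal lungs. Col1a1 (0.95, adjusted p = 0.059) and Col3a1 (0.65, adjusted p = 0.0661) missed the threshold. After centring each array on its median 4 collagens rose, and without the tumours with Eif2s3y 3 rose and 1 fell.

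Fgfr2, whose epithelial isoform binds Fgf7 and Fgf10, was above all normal lungs in 4 tumours and below all of them in 2. Signals were 6023, 10512, 8539 and 9252 in tumours 1, 3, 4 and 5 and 1193 and 965.3 in tumours 2 and 6. In normal lungs they ran from 2266 to 2892 with a median of 2542. No tumour lay inside the normal range on this probe set. The group difference did not pass (0.73 ± 0.53, adjusted p = 0.36), and the other 2 probe sets, with 1.15 ± 0.53 (adjusted p = 0.141) and 0.75 ± 0.56 (adjusted p = 0.382), did not pass either. The brighter of those 2 showed the same division, with 3665 to 6223 in tumours 1, 3, 4 and 5, 618.7 and 682.1 in tumours 2 and 6, and 1036 to 1311 in normal lungs. On the dimmer one tumours 1, 3, 4 and 5, at 245.9 to 436.0, were again above the normal lungs (80.5 to 136.2) and tumour 2, at 11.1, was below them, but tumour 6, at 99.7, was inside their range. The span among tumours was 3.42 log2 units, against 0.35 among normal lungs, and 3.03% of all genes had a wider span among tumours. The type II marker means followed the same division, at 0.85 to 1.09 log2 units above the normal mean in tumours 1, 3, 4 and 5. In tumour 2 the mean was -0.21 and in tumour 6 it was -0.49. Of the tumours with Eif2s3y (1, 2, 3 and 5), tumour 2 had low Fgfr2 and the others high. Of those without it, tumour 4 had high Fgfr2 and tumour 6 low. A relation of Fgfr2 to Eif2s3y among tumours was not tested.

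Fgfr1, the receptor typical of mesenchyme, fell by 0.81 ± 0.17 (adjusted p = 0.003). Signals ran from 316.9 to 618.7 with a median of 432.2 in tumours, and from 609.4 to 881.4 with a median of 779.9 in normal lungs. Only tumour 6, at 618.7, exceeded the lowest normal lung. On a second probe set the groups did not overlap and Fgfr1 fell by 1.10 ± 0.14 (adjusted p = 2.69e-05), and on the third, which is dim, the difference was -0.53 ± 0.24 (adjusted p = 0.134). The call of the first was lost without the tumours with Eif2s3y (-0.66, adjusted p = 0.0537).

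Of 9 other measured receptors, co-receptors and docking genes of the fibroblast growth factor pathway, 4 fell and none rose (median -0.66). The number lower was 3 under each of 5 alternatives, and 1 gene was called higher after median centring. The median was -0.20 with Eif2s3y as a covariate and -0.10 without the tumours with Eif2s3y. Fgfr3 fell by 2.26 ± 0.32 (adjusted p = 9.30e-05), at 307.3 to 1338 in tumours and 2638 to 3878 in normal lungs. Fgfr4 fell by 2.27 ± 0.35 (adjusted p = 2.00e-04), at 43.5 to 361.0 in tumours and 611.9 to 878.0 in normal lungs. Of the receptors Fgfr1 to Fgfr4, Fgfr2 was the one with tumours above the normal range. The adhesion proteins Flrt2 and Flrt3, which bind these receptors, fell by 1.38 ± 0.47 (adjusted p = 0.0433) and 1.30 ± 0.22 (adjusted p = 3.83e-04).

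Of 18 ligand genes of the family 3 fell and none rose (median -0.01), where 17.4% of all genes were called lower and 12.1% higher. Fgf7, a mesenchymal ligand of Fgfr2, fell by 2.85 ± 0.22 (adjusted p = 5.12e-07), with 66.3 to 197.8 in tumours and 698.9 to 948.4 in normal lungs. Fgf10, the ligand that drives lung branching, fell by 1.74 ± 0.23 (adjusted p = 4.37e-05), with 21.7 to 63.4 in tumours and 126.0 to 178.5 in normal lungs. Fgf7 and Fgf10 were thus low in all 6 tumours, those with high Fgfr2 included. Fgf1, a broad ligand, fell by 0.97 ± 0.26 (adjusted p = 0.0138). Most other ligands were dim in both groups, and the smallest adjusted p of the 15 that did not pass was 0.151.

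Genes that fibroblast growth factor and Ras signalling induce were divided. Of 9 such genes 4 rose and 1 fell (median 0.56). The transcription factor gene Etv4 rose by 2.03 ± 0.37 (adjusted p = 7.56e-04), and the Ras pathway inhibitors Spred1 by 1.64 ± 0.18 (adjusted p = 1.12e-05), Spry2 by 0.86 ± 0.17 (adjusted p = 0.00152) and Spred2 by 0.56 ± 0.12 (adjusted p = 0.00336). The receptor antagonist Il17rd fell by 1.61 ± 0.30 (adjusted p = 9.04e-04). Etv5 and Spry1 did not pass, and both had tumours 1, 3, 4 and 5 above all normal lungs and tumours 2 and 6 below them, as Fgfr2 had. Etv5, also a type II marker here, had 2823 to 4284 in tumours 1, 3, 4 and 5, 552.1 in tumour 2 and 669.2 in tumour 6, where normal lungs had 1048 to 1848. Spry1 had 4990 to 6190 in tumours 1, 3, 4 and 5, 1543 in tumour 2 and 2093 in tumour 6, where normal lungs had 2873 to 3892. These 2 genes, and Gab1, Prss8, Hgfac, Itgb4 and Epha7 above, were singled out for their values in tumours 2 and 6 after their values were seen.

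**Figure D4:**
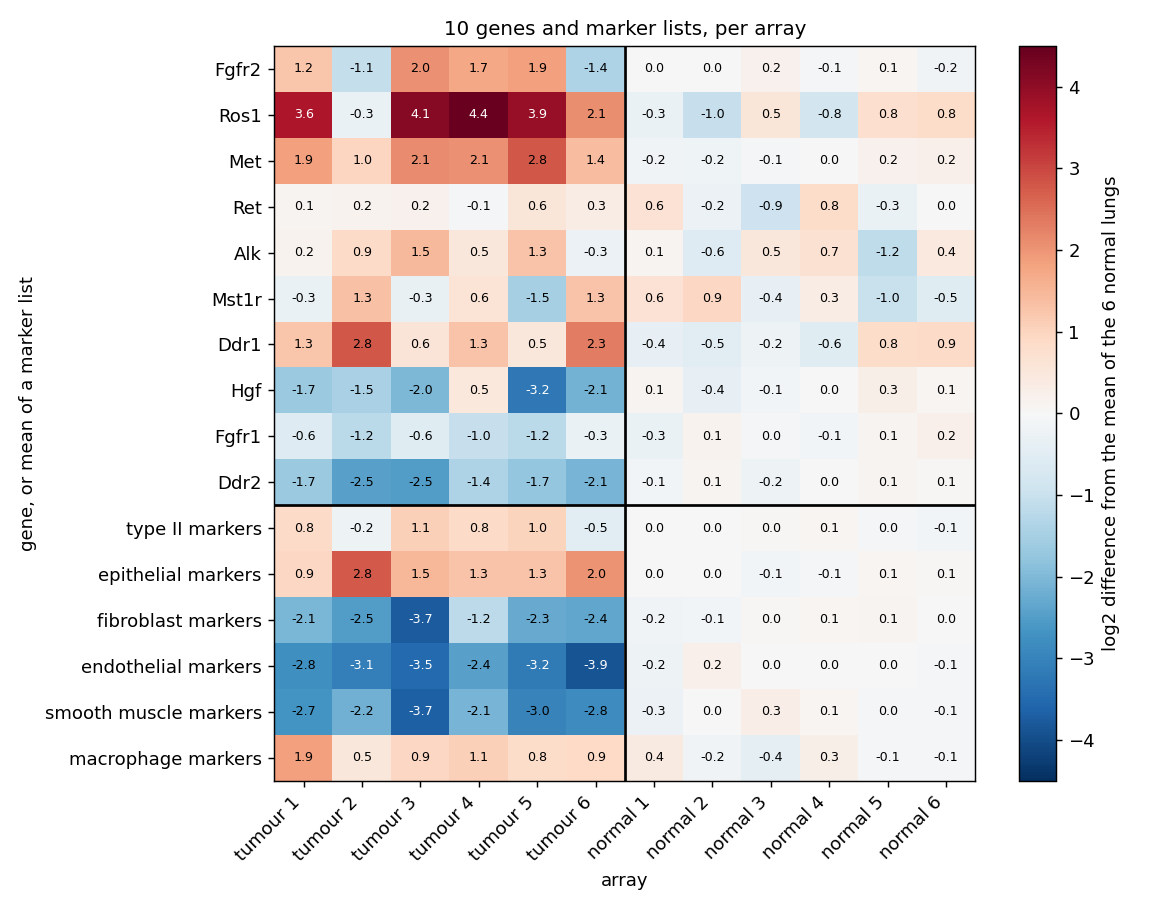
Log2 difference of each array from the mean of the 6 normal lungs, tumours left and normal lungs right of the line, for the 10 genes (above) and for means of marker lists (below). In tumours 2 and 6 Fgfr2 and the type II markers lie below the normal mean, Ddr1 and the epithelial markers are the highest of the tumours, and Met and Ros1 the lowest.

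Sample by sample, tumours 2 and 6 differed from the other 4 in 5 of the 10 genes. They were the 2 lowest tumours for Met, Ros1 and Fgfr2 and the 2 highest for Mst1r and Ddr1. In the other 5 genes they were not together at either end. Relative to the mean of normal lungs, Ros1 stood at -0.28 and 2.11 log2 units in tumours 2 and 6 and at 3.64 to 4.44 in tumours 1, 3, 4 and 5. For Fgfr2 the values were -1.08 and -1.38 in tumours 2 and 6 and 1.24 to 2.04 in the other 4. Ddr1 reached 2.79 in tumour 2 and 2.31 in tumour 6, where the other 4 had 0.50 to 1.27. The epithelial marker means of tumours 2 and 6, at 2.76 and 2.02, were also the highest of the tumours. These 2 tumours are not a group of the study, and the division was not tested. The share of all genes that divide the tumours in this way was not counted. The 5 of 10 can therefore not be read as particular to these genes. For 8 of the 10 genes the tumours spanned more log2 units than the normal lungs, which held for 68.8% of all genes.

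Among 47 other receptor tyrosine kinases 5 rose, 20 fell and 22 did not pass (median -0.33). With Eif2s3y as a covariate 2 were higher and 18 lower. Those that fell by most were the receptors of endothelium Tek (-3.45 ± 0.32), Kdr (-3.26 ± 0.27) and Tie1 (-2.75 ± 0.20) and of mesenchyme and progenitor cells Pdgfra (-2.91 ± 0.35) and Kit (-2.87 ± 0.25), with adjusted p-values of 2.27e-05 or less. Tek, Kdr and Tie1 are also among the endothelial markers above and Pdgfra among the fibroblast markers, so their falls are counted in both places. Egfr fell by 1.81 ± 0.34 (adjusted p = 0.00103) and Igf1r by 1.29 ± 0.16 (adjusted p = 2.81e-05). The 5 that rose were Epha7 (2.11 ± 0.55), Epha4 (1.61 ± 0.20), the neuregulin receptor Erbb3 (1.11 ± 0.14), Axl (0.76 ± 0.22), the receptor for Gas6, and Erbb2 (0.54 ± 0.17).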

How the data were processed

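Total RNA of 6 tumours and 6 normal lungs was labelled by a one-cycle Affymetrix protocol, per the labels' protocols. The deposited values are linear signal intensities, 1 for each probe set. The submitters' processing notes name MAS5, and its version and settings are not given in the sources used here. The 2% trimmed mean was the same on every array, so this scaling was kept. Median signals were 126.5 to 150.2 in tumours and 151.7 to 164.9 in normal lungs. Precision is limited by how few arrays there are. The limma p-values weigh the group difference against the spread between arrays, and how much of that spread is technical is not known.

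Of 45101 probe sets, 64 array controls were left out. GEO's platform annotation gave 34945 probe sets 1 symbol, 932 several and 9160 none listed. Values were fitted as log2(signal + 16) with limma 3.58.1 in R 4.3.3 (eBayes with an intensity trend, no covariate), tested on simulated data. Promoters came from RefSeq tables, and figures were drawn with matplotlib 3.10.9 in Python 3.11.15. A list is described by its counts. Named genes were the 10 genes, list members past the threshold or given as not past it, and the 3 genes nearest to Met and to Ros1. The genes and lists were chosen with earlier results of these data known. Alternatives changed the offset, scaling, filter, trend, gene value, replicate block, sex-linked covariate and the arrays left out; choosing probe sets by linear signal was added after seeing the data. Same-numbered tumours and normal lungs did not deviate together (correlations of -0.018 to 0.022 over probe sets), so the numbers were not taken as pairs. Tumours 1, 2, 3 and 5 had Eif2s3y at 740.5 to 1638, and no normal lung exceeded 27.4. For these tumours the numbers cannot mark pairs from the same animal.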

Additional observations from a re-analysis of the deposited data

How the results depend on the processing

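The rises of Met and Ros1 and the fall of Ddr2 kept direction and call under all 25 alternatives, with ranges of 1.68 to 2.06, 2.29 to 3.64 and -2.09 to -1.74. Ros1 has 1 probe set, so alternatives in the gene value could not move its difference. Choosing by variance or linear signal kept the same Ddr2 probe set. The adjusted p of Ros1 came nearest to the threshold without normal lungs 2 and 4 (0.040) and with Eif2s3y as a covariate (0.031). The number of the 10 genes called lower was 1 in place of 3 without the tumours with Eif2s3y, a setting with 2 tumours, so that fewer samples were tested. With Eif2s3y as a covariate 2 of the 10 were higher and 2 lower. Leaving out 1 array changed no call of the 10 genes and turned only the direction of Mst1r, which ran from -0.042 to 0.52 and was -0.016 without normal lung 5, -0.042 without tumour 2 and -0.035 without tumour 6. Ret passed on its second probe set (1.05), chosen by linear signal or by variance, and as a mean of probe sets (0.63, adjusted p = 0.016). With probe sets chosen by linear signal 4 of the 10 genes were higher and 3 lower. Ddr1 was at 0.08 on the probe set with the largest variance. With the replicate block 3 of the 10 genes were higher and 3 lower, no call of the 10 changed, and 3969 probe sets were higher and 5646 lower, against 4529 and 6279 without it. No tumour correlated best with its own number. Of the calls over all probe sets 41.9% were higher, 50.6% after quantile normalization and 61.9% after median centring (7431 higher and 4566 lower), as the median difference moved to 0.05 and 0.13, against -0.06. The counts were 2603 and 4069 with Eif2s3y as a covariate and 3003 and 4819 without normal lungs 2 and 4. Of the 11 HGF and MST1 processing genes 5 rose and none fell with Eif2s3y as a covariate, in limma. Dim signals limit Alk, Mst1r, Ret and, in normal lungs, Ros1.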

Other observations

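Genes that neighbour Ros1 in RefSeq's order were measured as well, chosen after the values of Ros1 were seen. Of 10 measured neighbours 1 rose, 3 fell and 6 did not pass, where 12.1% of all genes were called higher and 17.4% lower. Dcbld1 and Gopc, the next 2 protein-coding genes on one side, had differences of 0.04 ± 0.20 and -0.22 ± 0.12 (adjusted p = 0.919 and 0.203), and Vgll2, the next gene on the other side, had -0.52 ± 0.28 (adjusted p = 0.201). Fam162b fell by 3.45 ± 0.30 (adjusted p = 1.04e-06), Pln, the calcium pump inhibitor phospholamban, by 2.81 ± 0.20 (adjusted p = 2.25e-07) and Gprc6a by 1.33 ± 0.31 (adjusted p = 0.00525). Slc35f1 rose by 0.92 ± 0.32 (adjusted p = 0.0486), at 57.4 to 190.1 in tumours and 28.4 to 84.7 in normal lungs, with overlap.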
